A study of Homo sapiens with 34 samples.

Results

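Keratins are the intermediate filament proteins of epithelial cells, and 10 of their genes were followed through a cardiac differentiation of human embryonic stem cells. The genes were KRT4, KRT5, KRT7, KRT8, KRT14, KRT15, KRT17, KRT18, KRT19 and KRT23, a list made with earlier results of these data known, and each was read from the RefSeq row of the gene table that held most of its counts. All 10 were present among the 23185 gene symbols of the table. RNA-seq counts came from H1, an established human embryonic stem cell line, and from 3 of its sublines, in which a lentivirus delivered an shRNA to NKX2-5, ZEB2 or ZNF503. The WT cells were not untreated H1 but H1 infected with a vector against GFP or with an empty vector, so every line carried a lentivirus and had passed puromycin selection. Each shRNA line came from the 1 vector with the best knockdown among those tested. The libraries used came from all 4 lines at days 0, 2 and 6. At day 10 they came from the WT, NKX2-5 shRNA and ZEB2 shRNA lines, with 2 libraries in each of 15 groups. The authors also sequenced the ZNF503 shRNA line at day 10 but discarded those samples for poor RNA, which they ascribed to high cell death. At day 10 the WT and ZEB2 shRNA lines were represented by replicates 3 and 4 only, since the day 10 columns of their replicates 1 and 2 did not run in the order of the gene rows. The replicates are described as biological replicates, and nothing says whether they were separate differentiations, so the p-values measure the spread between these libraries.

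Keratin filaments are built from heterodimers of a type I (acidic) and a type II (basic) chain, and a chain without a partner is degraded. The pair KRT8 and KRT18 is the first to appear in the embryo and marks simple epithelia such as liver, gut and trophoblast, together with KRT19 and KRT7. KRT5 pairs with KRT14 and KRT15 in the basal layer of stratified epithelia, KRT17 is found in skin appendages and injured epidermis, and KRT4 belongs to the upper layers of moist stratified epithelia such as the oesophagus. KRT8 and KRT18 are also transcribed in undifferentiated embryonic stem cells and in early mesoderm and heart, so their RNA alone does not name an epithelium.

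The type II genes lie in the keratin cluster of chromosome 12 and the type I genes in that of chromosome 17, except for KRT18, a type I gene that sits next to KRT8. In the GRCh37 annotation KRT4 (row NM_002272) spans chr12:53200333-53207900 on the minus strand with 9 exons, and KRT8 (row NR_045962) spans chr12:53290971-53343738 on the minus strand. KRT18 (row NM_000224) spans chr12:53342655-53346690 on the plus strand and overlaps the annotated span of KRT8 on the opposite strand. KRT7 (row NM_005556) spans chr12:52626304-52645970 on the plus strand and overlaps an antisense RNA, KRT7-AS. KRT19 (row NM_002276) spans chr17:39679869-39684560 on the minus strand with 6 exons. The library kit keeps the strand, but the strand setting of the counting is not given in the sources used here, so reads of overlapping genes on opposite strands may be mixed. The annotation also names 67 pseudogenes of KRT18, 51 of KRT8, 8 of KRT17 and 5 of KRT19. Reads had been placed at 1 best position, so the counts of these 4 genes are uncertain by whatever part went to or came from the copies.

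Total counts ran from 9189588 to 90798116 per library, and day 10 was the shallowest, with 9189588 to 29548573. The targeted genes were lower in their own lines at day 6. NKX2-5 was at 0.993 and 0.761 CPM (read counts scaled to library size) in its shRNA line against 84.2 and 50.5 in WT cells, ZEB2 at 54.6 and 57.1 against 96.8 and 94.1, and ZNF503 at 0.611 and 0.648 against 8.71 and 9.34. The targets were also lower than in WT in lines that carried another shRNA, except for ZNF503 in the ZEB2 line. At day 6 ZEB2 was at 20.5 and 20.5 CPM in the NKX2-5 line and 10.9 and 12.7 in the ZNF503 line, both below its level in the ZEB2 shRNA line. ZNF503 was at 0.588 and 0.902 CPM in the NKX2-5 line and at 13.2 and 11.8 in the ZEB2 line. NKX2-5 was at 2.90 and 2.07 CPM in the ZNF503 line and 37.2 and 34.8 in the ZEB2 line. Because these are bulk samples, fewer cells of a type and less RNA per cell cannot be told apart in any keratin level below.

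KRT8, KRT18 and KRT19 carried nearly the whole keratin signal. In CPM per kilobase of transcript, which allows genes to be compared, these 3 made up 97.3% to 99.9% of the summed level of the 10 keratins in every one of 30 libraries. All 3 had more than 3 counts in 30 of 30 libraries, KRT7 in 29, KRT17 in 18, KRT15 in 15, KRT23 in 11, and KRT4 and KRT14 in 9 each. KRT5, the basal keratinocyte keratin, exceeded 3 counts in only 4 libraries, all of day 2 (NKX2-5 and ZEB2 shRNA), and reached at most 8 counts. It passed no expression filter and was not tested. A count of 3 marks the lowest level read as detected, and it covers counting error only.

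In WT cells the 4 simple-epithelial keratins were highest at day 6, the stage of cardiac progenitors. KRT8 was at 191 and 194 CPM at day 0, 149 and 157 at day 2, 1219 and 1052 at day 6, and 287 and 243 at day 10. KRT18, its partner, was at 229 and 215, then 124 and 120, then 771 and 636, and 142 and 102 CPM on the same days. KRT19, the smallest keratin, was at 36.2 and 32.2, then 45.5 and 46.0, then 453 and 555, and 155 and 125 CPM. For each of these genes the day 6 libraries lay above all WT libraries of the other days. KRT7, a keratin of ductal, amniotic and other simple epithelia, was at 2.19 and 2.83 CPM at day 0, 0.386 and 0.123 at day 2, 8.06 and 11.8 at day 6, and 2.58 and 1.51 at day 10, so its day 2 value was a trough.

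From day 0 to day 6 all 4 keratins tested in WT cells rose at a false discovery rate (FDR) of 5% by edgeR's quasi-likelihood test, which 60.9% of all tested genes passed in either direction and 31.3% as rises. The log2 changes were 3.91 ± 0.14 (SE) for KRT19 (adjusted p = 9.99e-09), 2.59 ± 0.12 for KRT8, 2.02 ± 0.34 for KRT7 and 1.69 ± 0.15 for KRT18. Only KRT19 passed the study's day 6 rule of 8-fold at 1% FDR, which 10.2% of genes passed (6.29% as rises). From day 0 to day 2, KRT7 fell by 3.06 on the log2 scale (SE 0.48, adjusted p = 0.000595) and was the 1 keratin to pass the 4-fold and 10% FDR rule, passed by 8.37% of genes (3.11% as falls). KRT18 fell by 0.82 and KRT19 rose by 0.46 at 5% FDR (44.1% of genes, 21% as rises and 23.1% as falls), and the KRT19 change lost the 5% level whenever any 1 of the 4 libraries was left out. From day 0 to day 10 none passed 8-fold at 1% FDR (15.5% of genes), whereas 3 passed 5% FDR (73.8% of genes, 39.1% as rises and 34.7% as falls). These were KRT19 (log2 2.09 ± 0.14), KRT8 (0.52 ± 0.11) and KRT18, which fell by 0.80 ± 0.15, so the members of the KRT8 and KRT18 pair moved in opposite directions over this interval.

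**Figure D1:**
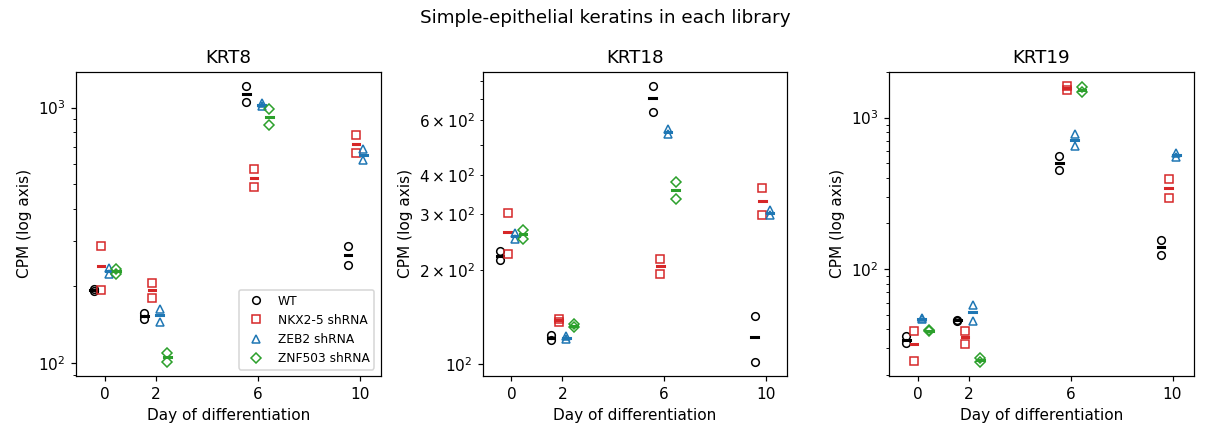
CPM of KRT8, KRT18 and KRT19 on a log axis against the day of differentiation, with 1 point per library, colours and symbols for the 4 lines, and a bar at each group mean (2 libraries). At day 6 KRT19 stands above WT in the NKX2-5 and ZNF503 shRNA lines while KRT18 stands below it, and at day 10 all 3 genes stand above WT in both shRNA lines measured.

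Before differentiation none of the 4 keratins tested differed from WT by the study's rule. At day 0 KRT7, KRT8, KRT18 and KRT19 were tested and none passed the 2-fold and 10% FDR rule, which 4.03%, 2.21% and 2.57% of genes passed in the NKX2-5, ZEB2 and ZNF503 shRNA lines against WT. None passed 5% FDR either (15.9%, 3.93% and 7.49% of genes), and 3 of the 12 values had an unadjusted p below 0.05. These were KRT7 in the NKX2-5 (log2 -0.74 ± 0.26, adjusted p = 0.0706) and ZNF503 (0.53 ± 0.24, adjusted p = 0.199) lines and KRT19 in the ZEB2 line (0.43 ± 0.16, adjusted p = 0.174) by edgeR. KRT17 did not pass the expression filter and was not tested. Summed over libraries at day 0, it had 17 counts in the NKX2-5 line and 28 in the ZEB2 line against 2 in WT. The ZNF503 line had at most 1 count of KRT17 in a library. Scaled by TMM-adjusted library sizes, the ratios to WT for the NKX2-5 and ZEB2 lines were 6.79 (95% interval 1.61 to 60.6) and 6.81 (1.72 to 59.0), with counting error only.

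At day 2 no keratin passed the 4-fold and 10% FDR rule in any line (1.19%, 0.133% and 2.8% of genes), but the ZNF503 shRNA line was lower in 2 of them at 5% FDR (26.9% of genes, 13.7% as lower). KRT8 was at 110 and 101 CPM in that line against 149 and 157 in WT (log2 -0.59 ± 0.10, adjusted p = 0.000380). KRT19 was at 25.8 and 24.3 against 45.5 and 46.0 (log2 -0.92 ± 0.14, adjusted p = 0.000181). KRT18 was at 134 and 131 against 124 and 120 CPM (log2 0.07 ± 0.08, adjusted p = 0.542). ZNF503 itself was at 0.999 and 1.75 CPM in that line at day 2 against 1.09 and 1.96 in WT, so its RNA overlapped WT. At day 0 it was at 0.157 and 0.111 CPM against 0.107 and 0.105. In the NKX2-5 shRNA line KRT8 (log2 0.31 ± 0.10, adjusted p = 0.0302) and KRT19 (-0.40 ± 0.14, adjusted p = 0.0407) passed 5% FDR (26.6% of genes, 13% as higher and 13.6% as lower), and both lost it when any of 3 of the 4 libraries was left out. In the ZEB2 shRNA line 0 of 4 passed 5% FDR and 0 had an unadjusted p below 0.05, where 0.49% of genes passed 5% FDR. KRT23, untested at day 2, had 18 counts in the NKX2-5 line against 3 in WT, a ratio of 3.53 (95% interval 1.03 to 18.7, counting error only). Of these 18, 16 came from 1 library, and the groups overlapped (0.0825 and 0.283 CPM against 0 and 0.0965). The ZNF503 line had 19 counts, a ratio of 2.70 (0.794 to 14.2).

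At day 6 the NKX2-5 and ZNF503 shRNA lines had higher KRT19 and lower KRT18 than WT, and KRT4 appeared in both. KRT19 was at 1525 and 1624 CPM in the NKX2-5 line and at 1580 and 1473 in the ZNF503 line, against 453 and 555 in WT. KRT18 was at 194 and 217 CPM in the NKX2-5 line and at 380 and 336 in the ZNF503 line, against 771 and 636 in WT. No library of these lines overlapped WT in either gene, but the share of all genes that separated in this way was not counted. KRT8 was at 489 and 575 CPM in the NKX2-5 line and at 986 and 856 in the ZNF503 line, against 1219 and 1052 in WT.

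KRT4 went from near absence to a clear signal. It had 0 and 2 counts in the WT libraries, 111 and 202 counts (4.08 and 4.05 CPM) in the NKX2-5 line, and 200 and 195 counts (10.2 and 7.90 CPM) in the ZNF503 line. The ZEB2 shRNA libraries had 6 and 1 counts. Over the summed counts, scaled by TMM-adjusted library sizes, the ratio to WT was 131 (95% interval 36.0 to 1088) for the NKX2-5 line and 288 (79.2 to 2386) for the ZNF503 line. These intervals cover counting error only. KRT4 had been at 0 in all 8 libraries of day 0.

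By the 8-fold and 1% FDR rule, 2 of the 8 keratins tested at day 6 were higher and 0 lower in the NKX2-5 line (4.71% of all genes, 1.29% as higher), and 1 was higher and 0 lower in the ZNF503 line (3.91%, 1% as higher). KRT4 was the gene common to both (adjusted p = 5.71e-07 and 1.58e-07), and KRT17 was the other in the NKX2-5 line. At 5% FDR, passed by 49.1% of genes in the NKX2-5 line (24.5% higher, 24.7% lower) and 55.7% in the ZNF503 line (27.2% higher, 28.5% lower), 5 keratins were higher and 3 lower in the first and 4 higher and 1 lower in the second. KRT19 rose by a log2 of 1.64 ± 0.13 in the NKX2-5 line (adjusted p = 8.56e-07) and 1.59 ± 0.13 in the ZNF503 line (adjusted p = 1.31e-06). KRT18 fell by 1.78 ± 0.13 (adjusted p = 3.02e-07) and by 0.98 ± 0.13 (adjusted p = 4.04e-05). KRT8 fell by 1.10 ± 0.13 in the NKX2-5 line (adjusted p = 1.53e-05), and in the ZNF503 line its log2 value of -0.31 ± 0.12 had an adjusted p of 0.0517. KRT7 fell by 1.37 ± 0.21 in the NKX2-5 line (adjusted p = 0.000161), with 3.90 and 3.89 CPM against 8.06 and 11.8. In the ZNF503 line it was at 7.58 and 8.19 CPM (log2 -0.35 ± 0.20, adjusted p = 0.164). Both lines were compared with the same WT libraries.

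Of the stratified type I keratins, all at low levels, KRT15 and KRT17 were higher at 5% FDR in both lines at day 6 and KRT14 in the NKX2-5 line. KRT15 was at 1.76 and 1.72 CPM in the NKX2-5 line and 2.24 and 1.50 in the ZNF503 line, against 0.0433 and 0.505 in WT (log2 2.44 ± 0.59 and 2.54 ± 0.60, adjusted p = 0.00432 and 0.0036). KRT17 and KRT14 rested on 1 library of the NKX2-5 line. KRT17 had 26 counts in replicate 1 and 203 in replicate 2, KRT14 had 18 and 229, and the WT libraries had 12 and 4 counts of KRT17 and 10 and 11 of KRT14. Replicate 2 thus stood apart from replicate 1 in both genes. With both libraries KRT17 was 3.25 ± 0.75 higher on the log2 scale (adjusted p = 0.0032) and KRT14 3.00 ± 0.91 (adjusted p = 0.0159). Without replicate 2 the values were 1.79 (adjusted p = 0.0959) and 0.96 (adjusted p = 0.496), and the KRT14 call was also lost without WT replicate 2 (adjusted p = 0.0849). In the ZNF503 line KRT17 was at 1.48 and 1.26 CPM against 0.520 and 0.0962 (log2 2.33 ± 0.80, adjusted p = 0.0256), a call lost without either ZNF503 library or without WT replicate 2 (adjusted p = 0.0742 to 0.189). KRT14, the usual partner of KRT5, was measured at 0.560 and 0.608 CPM there (log2 0.80 ± 1.06, adjusted p = 0.547), and KRT5 itself had 0 counts in both lines.

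**Figure D2:**
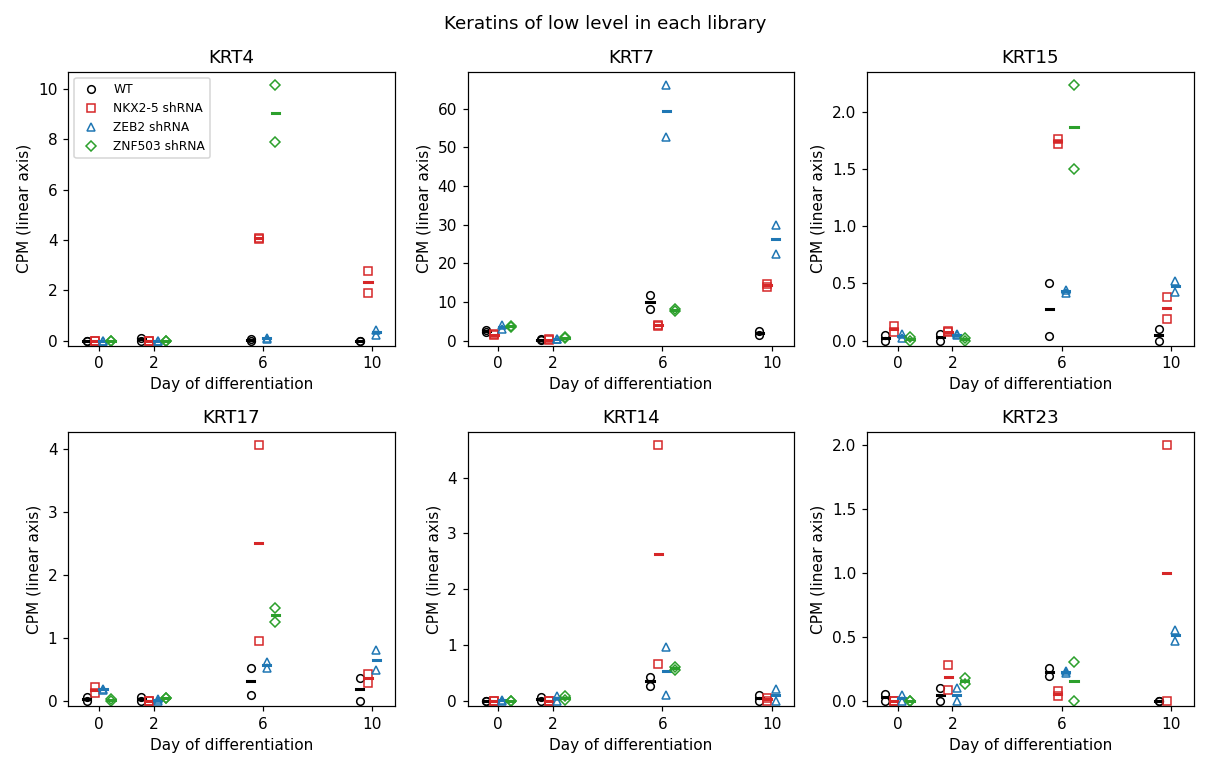
CPM on a linear axis of 6 keratins of low level against the day of differentiation, with 1 point per library, colours and symbols for the lines and a bar at each group mean (2 libraries). KRT4 and KRT15 are raised in the NKX2-5 and ZNF503 shRNA lines at day 6, KRT7 in the ZEB2 shRNA line at days 6 and 10, and single NKX2-5 shRNA libraries set the means of KRT14, KRT17 (day 6) and KRT23 (day 10).

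The ZEB2 shRNA line showed another keratin at day 6. KRT7 was at 52.6 and 66.2 CPM against 8.06 and 11.8 in WT, so its libraries lay far above the WT libraries (log2 2.57 ± 0.20, adjusted p = 7.15e-06). It missed the 8-fold rule, which no keratin passed in this line (0.462% of genes), and it passed 5% FDR (11% of genes, 5.67% as higher) with KRT19. KRT19 was at 648 and 782 CPM (log2 0.51 ± 0.13, adjusted p = 0.0243), a call lost without ZEB2 shRNA replicate 2 (adjusted p = 0.237) and without WT replicate 1 (adjusted p = 0.157). KRT8 was at 1010 and 1038 CPM (log2 -0.14 ± 0.12, adjusted p = 0.533) and KRT18 at 540 and 561 (log2 -0.35 ± 0.12, adjusted p = 0.102).

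Set directly against each other at day 6, the lines differed in KRT4, KRT7 and KRT18 in all 3 comparisons at 5% FDR, and in KRT8 in both that involve the NKX2-5 line (ZNF503 against ZEB2, log2 -0.16 ± 0.12, adjusted p = 0.295). KRT19 was higher than in the ZEB2 line by 1.13 ± 0.13 in the NKX2-5 line (adjusted p = 2.11e-05) and 1.08 ± 0.13 in the ZNF503 line (adjusted p = 3.32e-05). KRT4 was 5.37 ± 0.45 higher on the log2 scale in the NKX2-5 line than in the ZEB2 line and 6.52 ± 0.44 higher in the ZNF503 line than in the ZEB2 line. For KRT7 the log2 difference from the ZEB2 line was -3.94 ± 0.22 in the NKX2-5 line and -2.92 ± 0.21 in the ZNF503 line. By the 8-fold and 1% FDR rule 2 keratins (KRT4 and KRT7) passed between the NKX2-5 and ZEB2 lines (4.59% of genes, 1.07% higher and 3.52% lower) and 1 (KRT4) between the ZNF503 and ZEB2 lines (3.48%, 0.736% higher). At 5% FDR 8 of 8 differed in the first comparison, 5 higher and 3 lower (44.4% of genes, 21.3% and 23.1%), and 5 in the second, 3 higher and 2 lower (49.2%, 23.7% and 25.6%). Of the first 8, KRT14 lost 5% FDR without NKX2-5 replicate 2 or ZEB2 replicate 1 (adjusted p up to 0.617), KRT15 without either ZEB2 library (up to 0.134) and KRT17 without NKX2-5 replicate 2 or either ZEB2 library (up to 0.521). KRT15 lost it between the ZNF503 and ZEB2 lines without ZEB2 replicate 1 or ZNF503 replicate 1 (adjusted p up to 0.110). Between the NKX2-5 and ZNF503 lines none passed it (0.395%), and 4 passed 5% FDR (14.7% of genes, 8.8% as lower), each lower in the NKX2-5 line. These were KRT18 (log2 -0.80 ± 0.13), KRT8 (-0.79 ± 0.12), KRT7 (-1.02 ± 0.21) and KRT4 (-1.15 ± 0.28). The KRT4 difference lost 5% FDR without either NKX2-5 library or without ZNF503 shRNA replicate 1 (adjusted p = 0.102 to 0.135), and the KRT7 difference without NKX2-5 shRNA replicate 2 (adjusted p = 0.0599). KRT19 had a difference of 0.04 ± 0.13 (adjusted p = 0.858) between these lines.

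**Figure D3:**
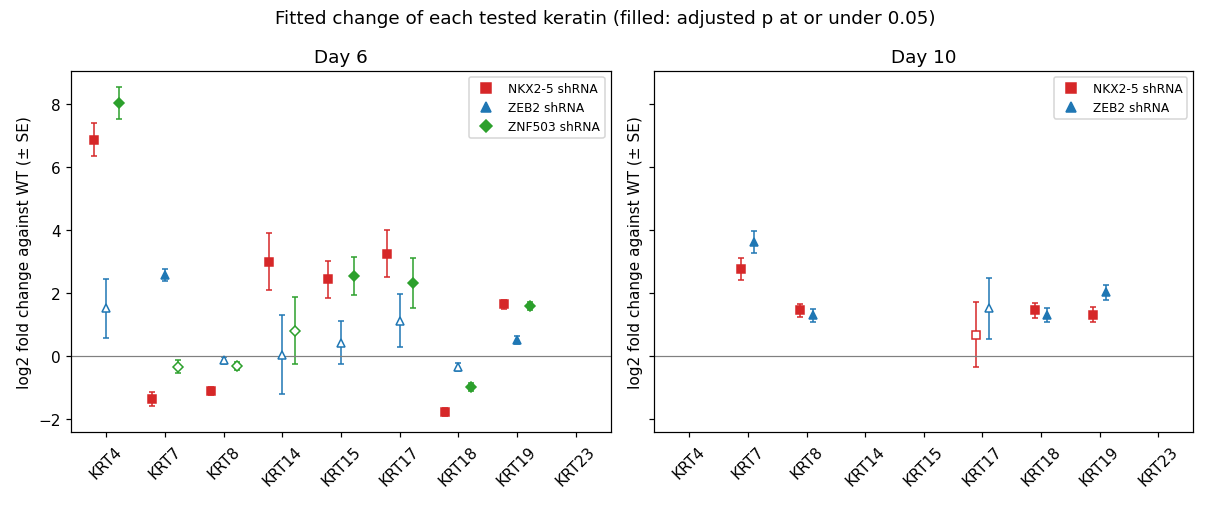
Fitted log2 fold change against WT with its standard error for each tested keratin at day 6 (left) and day 10 (right), coloured by line, filled where the adjusted p was 0.05 or below. KRT4 and KRT23 at day 10 are not drawn because both WT libraries were at 0. KRT18 lies below 0 in the NKX2-5 and ZNF503 lines at day 6 and above 0 in both lines drawn at day 10.

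Other markers moved in the same libraries. The 10 hepatic and endodermal markers (AFP, ALB, TTR and others) summed to 4761 to 4983 CPM in the NKX2-5 line and 4030 to 4044 in the ZNF503 line at day 6, against 439 to 923 in WT and 526 to 760 in the ZEB2 line. The 6 cardiomyocyte markers summed to 35.7 to 44.9 and 149 to 199 CPM in the NKX2-5 and ZNF503 lines, against 7896 to 9733 in WT and 4221 to 4667 in the ZEB2 line. The 11 markers of surface ectoderm, amnion and trophoblast summed to 983 to 1139 CPM in the ZEB2 line, 458 to 554 in WT, 142 to 145 in the NKX2-5 line and 298 to 344 in the ZNF503 line. None of these markers was at 3 counts or fewer in every library of a day 6 group, except CGA in the 3 shRNA lines and NPPA in the ZNF503 line. The 8 markers of squamous epithelium, among them IVL, LORICRIN and CRNN, summed to 0.997 to 1.95 CPM in all day 6 groups, with 5 or 6 of them at 3 counts or fewer. Their part in the keratin values was not tested.

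Promoter sequence was read for KRT4 and KRT8, genes of the type II cluster of which KRT4 rose and KRT8 fell in the NKX2-5 line at day 6. The RefSeq promoter table (GRCh38.p14) held 3 of the 10 keratins, KRT4, KRT5 and KRT8. The 250 bases before the start that the table gives are printed 5′ to 3′ on the gene's strand, from chr12:52814117-52814366 (minus strand) for KRT4 and chr12:52926470-52926719 (minus strand) for KRT8. KRT8 has several annotated starts far apart, and its window was not matched to the start of the row counted, so it need not be the promoter in use. Capitals mark AGGTG or its reverse complement CACCT, the core of the E-box that ZEB proteins bind.
KRT4: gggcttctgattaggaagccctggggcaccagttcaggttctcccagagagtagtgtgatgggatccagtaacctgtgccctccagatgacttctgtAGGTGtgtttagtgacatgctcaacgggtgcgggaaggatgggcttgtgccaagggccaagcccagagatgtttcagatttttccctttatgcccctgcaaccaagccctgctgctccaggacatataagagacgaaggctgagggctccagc
KRT8: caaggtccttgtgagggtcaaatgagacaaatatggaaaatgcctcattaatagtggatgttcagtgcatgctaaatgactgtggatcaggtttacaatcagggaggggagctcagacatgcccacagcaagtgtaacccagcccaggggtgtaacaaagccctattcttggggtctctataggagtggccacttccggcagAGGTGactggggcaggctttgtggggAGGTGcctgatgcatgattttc

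The KRT4 window held 1 match to this core and the KRT8 window 2, on either strand, while 45.4% of 35116 promoters of the same length held at least 1 and 13.6% held 2 or more. AAGTG or CACTT, the core that NKX2-5 prefers, occurred 0 times in KRT4 and 2 times in KRT8, and in 37.6% of promoters. TATAA or TTATA occurred 1 time in KRT4, 0 times in KRT8 and in 18.9% of promoters. The GC share was 54.8% for KRT4 and 50.4% for KRT8. These letters describe the windows and are no evidence of binding.

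At day 10 the simple-epithelial keratins were higher than WT in both shRNA lines measured, with WT itself below its day 6 level. KRT8 was at 784 and 663 CPM in the NKX2-5 line and 687 and 622 in the ZEB2 line, against 287 and 243 in WT. KRT18 was at 365 and 300, and at 309 and 299, against 142 and 102 CPM. KRT19 was at 395 and 295, and at 587 and 551, against 155 and 125 CPM. No library of either line overlapped WT in these 3 genes, but the share of all genes that separated in this way was not counted. KRT7 was at 13.9 and 14.6 CPM in the NKX2-5 line and 29.9 and 22.5 in the ZEB2 line, against 2.58 and 1.51 in WT.

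By the 8-fold and 1% FDR rule 1 keratin of the 7 tested was higher in each line, KRT4 in the NKX2-5 line (7.31% of genes, 4.46% as higher) and KRT7 in the ZEB2 line (1.46%, 0.976% as higher). KRT4 had 58 and 40 counts in the NKX2-5 line, 7 and 10 in the ZEB2 line and 0 and 0 in WT. It was at least 7.22-fold higher in the NKX2-5 line than WT, taking 3 counts in the shallower WT library as the floor (adjusted p = 0.00337), and the ZEB2 values lay at that floor (adjusted p = 0.0559). At 5% FDR, 5 keratins were higher in the NKX2-5 line (43.9% of genes, 23.3% as higher) and 4 in the ZEB2 line (18.2%, 10.5% as higher), with 0 lower in either. The log2 changes in the NKX2-5 line were 2.76 ± 0.34 for KRT7 (adjusted p = 0.0011), 1.45 ± 0.21 for KRT8 (0.00198), 1.45 ± 0.23 for KRT18 (0.00273) and 1.31 ± 0.23 for KRT19 (0.004). In the ZEB2 line they were 3.63 ± 0.35 for KRT7 (adjusted p = 0.00222), 2.02 ± 0.23 for KRT19 (0.00324), 1.30 ± 0.21 for KRT8 (0.00839) and 1.31 ± 0.23 for KRT18 (0.0105).

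The limits at day 10 lie in the number of libraries and in their replicate numbers. The NKX2-5 line had replicates 1 and 2, whereas WT and the ZEB2 line had replicates 3 and 4. A difference between these sets of replicates cannot be told apart from a difference between the NKX2-5 line and the others. KRT8 and KRT18 in the ZEB2 line lost 5% FDR without either ZEB2 library or without WT replicate 4 (adjusted p = 0.0645 to 0.0993). KRT7 kept 5% FDR in that line whichever library was left out (adjusted p up to 0.0295), but without any 1 of the 4 libraries compared the number of keratins past 8-fold and 1% FDR was 0. In the NKX2-5 line that number was 0 without WT replicate 4 and 2 without NKX2-5 shRNA replicate 2, and KRT4 kept 5% FDR throughout (adjusted p up to 0.0277). Set against each other, the lines had 0 keratins past 8-fold and 1% FDR (1.94% of genes) and 1 past 5% FDR (21.4%, 10.6% as higher), KRT4, higher in the NKX2-5 line by 2.88 ± 0.66 on the log2 scale (adjusted p = 0.0285, and 0.256 and 0.182 without either ZEB2 library). The hepatic and endodermal markers summed to 29638 to 41738 CPM in the NKX2-5 line, 7454 to 8840 in the ZEB2 line and 1562 to 3881 in WT. The surface ectoderm, amnion and trophoblast markers summed to 856 to 1215, 1255 to 1299 and 108 to 235 CPM. Of these 11, 2 were higher at 5% FDR in the NKX2-5 line (median log2 0) and 8 in the ZEB2 line (5.36), with TFAP2A and TFAP2B at 0 counts and GABRP at a mean of 0.572 CPM in the NKX2-5 line. The cardiomyocyte markers summed to 52.9 to 310, 3410 to 5152 and 11994 to 14919. Their part in the keratin values was not tested.

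KRT23, a type I keratin of less defined role, was near the detection floor before day 10. It had 42 and 0 counts in the NKX2-5 line at day 10, 18 and 11 in the ZEB2 line and 0 and 0 in WT. Since 1 NKX2-5 library held all of that line's counts, the groups overlapped, and neither line passed 5% FDR (adjusted p = 0.0937 and 0.222).

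Ratios within a library showed how the partners shifted against each other. The ratio of KRT8 to KRT18 in CPM per kilobase rose in WT from 0.687 ± 0.041 (SD, n = 2) at day 0 to 0.998 ± 0.063 at day 2, 1.28 ± 0.04 at day 6 and 1.74 ± 0.21 at day 10. At day 6 it was 2.05 ± 0.07 in the NKX2-5 line, 2.04 ± 0.03 in the ZNF503 line and 1.47 ± 0.01 in the ZEB2 line, each above both WT libraries. At day 2 the ZNF503 line, at 0.628 ± 0.028, lay below the other 3 lines. By day 10 the lines were at 1.70 to 1.74 and overlapped.

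KRT19 took over most of the type I pool in the NKX2-5 and ZNF503 lines. The ratio of KRT19 to KRT18 per kilobase at day 6 was 0.742 ± 0.204 in WT, 1.32 ± 0.14 in the ZEB2 line, 4.35 ± 0.16 in the ZNF503 line and 7.80 ± 0.29 in the NKX2-5 line, with no overlap between lines. KRT19 made up 42.2% ± 6.8 of the summed type I level in WT, 56.7% ± 2.6 in the ZEB2 line, 81.1% ± 0.6 in the ZNF503 line and 88.3% ± 0.6 in the NKX2-5 line, compared with 10.8% to 15.7% in the group means of day 0. The type II genes summed to 0.745 ± 0.061 of the type I genes in WT at day 6, 0.676 ± 0.041 in the ZEB2 line, 0.387 ± 0.016 in the ZNF503 line and 0.235 ± 0.015 in the NKX2-5 line. RNA of type I chains therefore exceeded that of type II chains in all 15 group means, by the widest margin in the NKX2-5 line at day 6. With 2 libraries a group, an exact test of such ratios cannot reach 0.05, so they are given as descriptions.

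**Figure D4:**
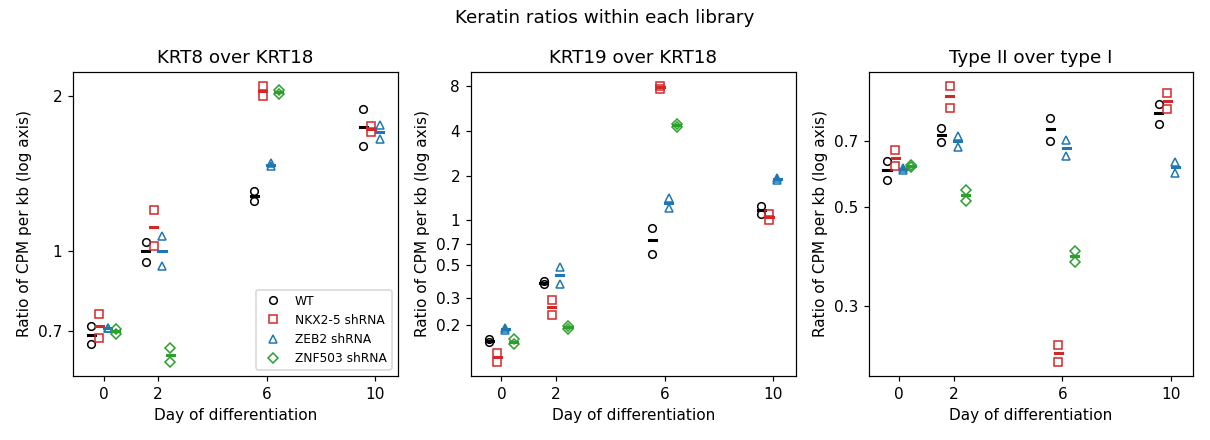
Ratios of CPM per kilobase within each library on log axes against the day of differentiation, for KRT8 over KRT18, KRT19 over KRT18, and all type II over all type I keratins of the 10, with 1 point per library and a bar at each group mean. The NKX2-5 and ZNF503 shRNA lines leave the WT course at day 6, to 7.80 and 4.35 for KRT19 over KRT18, and at day 10 the NKX2-5 libraries are at 1.10 and 1.00 for that ratio against 1.10 and 1.24 in WT.

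The remaining keratin genes were mostly silent. Of 43 others in the table, 28 never exceeded 3 counts and 11 reached 1 CPM in some library, led by KRT10 at 11.4 CPM. KRT79, a type II keratin of hair follicle and sebaceous duct, was the 1 gene of this list past 8-fold and 1% FDR against WT at day 6. That rule was passed as higher by 1.29% of all genes in the NKX2-5 line and 1% in the ZNF503 line. The KRT79 mean was 2.02 ± 0.22 CPM in the NKX2-5 line and 3.08 ± 1.04 in the ZNF503 line against 0.0722 ± 0.1021 in WT (log2 4.42 ± 0.64 and 5.03 ± 0.64, adjusted p = 0.00011 and 3.81e-05). At 5% FDR, 2 of the 5 tested were higher in each of these lines, 1 was lower in the NKX2-5 line, and 0 passed in the ZEB2 line. Of all genes 24.5% were higher and 24.7% lower in the NKX2-5 line, and 27.2% were higher in the ZNF503 line. In the ZEB2 line 11% passed in either direction. At day 10, 3 of 5 were higher in the NKX2-5 line (23.3% of all genes) and 1 in the ZEB2 line (10.5%), with 0 lower.

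Genes that work with keratins were counted from lists chosen with earlier results of these data known. Over all genes tested at day 6, 24.5% were higher and 24.7% lower at 5% FDR in the NKX2-5 line, 27.2% and 28.5% in the ZNF503 line, and 5.67% were higher in the ZEB2 line. At day 10, 23.3% were higher in the NKX2-5 line and 10.5% in the ZEB2 line. Of 21 epithelial genes tested, 18 were higher and 1 lower at 5% FDR in both the NKX2-5 and ZNF503 lines at day 6 (medians 1.85 and 1.33 on the log2 scale, against -0.0016 and -0.03 over all genes tested), and 12 were higher and 0 lower in the ZEB2 line (0.72). At day 10, 20 were higher and 1 lower in the NKX2-5 line (3.44) and 18 higher and 0 lower in the ZEB2 line (2.46). Of the higher genes, 14 and 4 passed 8-fold and 1% FDR, as 4.46% and 0.976% of all genes did in that direction. In WT the 21 genes summed to 1871 to 1980, 756 to 902 and 408 to 464 CPM at days 0, 6 and 10. In the NKX2-5 line they summed to 1813 to 2117, 1685 to 1758 and 1555 to 2667 on these days. The ZEB2 line was at 2118 to 2139, 1255 to 1349 and 1335 to 1536. The ZNF503 line was at 2128 to 2206 at day 0 and 1777 to 1828 at day 6. The differences from WT thus came with a WT level that fell. CRB3, a cell polarity protein, was 3.00 ± 0.21 higher in the ZNF503 line at day 6. SPINT1, an inhibitor of epithelial proteases, was 4.85 ± 0.49 higher in the NKX2-5 line at day 10 and GRHL2, a regulator of epithelial genes, 4.98 ± 0.41 higher in the ZEB2 line.

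Desmosomes anchor keratin filaments to the membrane. Of 12 desmosome and plakin genes tested, 7 were higher and 3 lower at 5% FDR in the NKX2-5 line at day 6, 6 and 3 in the ZNF503 line, and 1 and 2 in the ZEB2 line. The share of all genes was 24.5% higher and 24.7% lower in the first and 27.2% and 28.5% in the second. In the ZEB2 line 11% of all genes passed in either direction. At day 10 the counts were 6 and 1 in the NKX2-5 line (23.3% of all genes higher) and 2 and 1 in the ZEB2 line (10.5% higher). PKP3 (log2 4.29 ± 0.66) and PPL (3.55 ± 0.40), which link filaments to the junction and the cell envelope, passed 8-fold and 1% FDR in the NKX2-5 line at day 10. That rule was passed as higher by 4.46% of all genes there. Among 12 hemidesmosome and basement membrane genes, 8 rose and 0 fell in the NKX2-5 line at day 6 and 11 rose and 0 fell in the ZNF503 line, where COL4A1 was at a mean of 3130 CPM against 208 in WT (log2 3.91 ± 0.29). LAMA3, a chain of the laminin under epithelia, was 4.45 ± 0.64 higher in the NKX2-5 line at day 10.

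Other intermediate filament genes were counted in the same way. Of all genes tested at day 6, 24.5% were higher and 24.7% lower at 5% FDR in the NKX2-5 line, and 27.2% and 28.5% in the ZNF503 line. In the ZEB2 line 11% passed in either direction. At day 10, 23.3% of all genes were higher in the NKX2-5 line and 10.5% in the ZEB2 line. Of 13 tested at day 6, 1 was higher and 8 lower at 5% FDR in the NKX2-5 line, 3 and 7 in the ZNF503 line, and 0 and 3 in the ZEB2 line. DES, the desmin of muscle, was at a mean of 1.01 CPM in the NKX2-5 line and 0.761 in the ZNF503 line against 16.1 in WT (log2 -3.95 ± 0.31 and -4.39 ± 0.34). VIM, the vimentin of mesenchymal cells, fell by 1.22 ± 0.12 and 1.12 ± 0.12 in these lines at day 6, and at day 10 it was 1.72 ± 0.25 higher in the NKX2-5 line. Of 13 mesenchymal genes tested at day 6, 2 were higher and 9 lower in each of the NKX2-5 and ZNF503 lines and 0 and 6 in the ZEB2 line, and TWIST1 had log2 changes of -4.96 ± 0.32 and -3.14 ± 0.29 in the first 2. At day 10 the mesenchymal counts were 7 higher and 1 lower in the NKX2-5 line (median log2 1.22) and 8 and 1 in the ZEB2 line (1.09). The summed level of the 14 genes was then 9719 to 10212 and 13863 to 14414 CPM against 5911 to 6404 in WT. Of 18 regulators and markers of surface ectoderm and trophoblast at day 10, 13 were higher and 0 lower in the ZEB2 line. TFAP2A, a regulator of surface ectoderm, had at most 2 counts in WT, 0 in the NKX2-5 line and a mean of 24.6 ± 6.8 CPM in the ZEB2 line. GABRP was at a mean of 695 CPM in the ZEB2 line against 2.14 in WT. In the NKX2-5 line 6 of the 18 were higher and 1 lower at day 10. CDX2 was 5.44 ± 0.42 higher there, and MSX2 was the lower gene (log2 -3.12 ± 0.38). At day 6, 5 of 17 tested were higher and 10 lower in that line. CDX2 had a log2 change of 4.70 ± 0.44 then, GABRP -3.42 ± 0.16 and VTCN1 -3.19 ± 0.31.

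The genes whose means followed each keratin most closely were ranked by Pearson's r of mean log2(CPM + 1) over the 15 groups among 17010 genes. For KRT7 they were ZNF552 (r = 0.939), SPNS2 (0.935) and GATA2 (0.916), and for KRT8 TADA3 (0.970), TMEM98 (0.946) and PSTPIP2 (0.943). For KRT23 they were DRD2 (0.910), P2RX4 (0.906) and AGXT (0.904). The groups share lines, days and depth, so these values describe the order of groups. KRT23 was near the detection floor before day 10. Its highest group mean, in the NKX2-5 line at day 10, came from 1 library with 42 counts, so its r values rest on few counts. For KRT19 the closest was MIR492 (r = 0.993), before PCDH17 (0.984) and HABP2 (0.983), and for KRT18 it was MIR622 (0.952), before TOR2A (0.921) and TIAM2 (0.899).

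Both microRNA rows lie in keratin pseudogenes. In GRCh37, MIR492 (chr12:95228174-95228289) lies within KRT19P2 and MIR622 (chr13:90883436-90883531) within KRT18P27, each on the same strand. The RefSeq hairpin of MIR492 (GRCh38.p14, chr12:94834398-94834513, plus strand) matched KRT19 transcript positions 436 to 551 without gaps over its 116 bases, with 8 differing bases and an identity of 93.1%. Capitals mark the differing bases in the hairpin (RNA letters) and in the KRT19 transcript (DNA letters).
MIR492: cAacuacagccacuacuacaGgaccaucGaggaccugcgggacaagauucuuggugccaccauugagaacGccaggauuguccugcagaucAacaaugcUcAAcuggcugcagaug
KRT19: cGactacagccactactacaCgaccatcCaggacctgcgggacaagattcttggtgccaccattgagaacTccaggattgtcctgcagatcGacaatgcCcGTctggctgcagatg

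The mature miR-492 of 23 bases, aggaccugcgggacaagauucuu, was identical to positions 465 to 487 of the KRT19 transcript, and the mature miR-622 of 21 bases, acagucugcugagguuggagc, to positions 908 to 928 of KRT18. The row of MIR492 held 8634 counts over the 30 libraries, 2.45% of those of KRT19, and that of MIR622 held 919, 0.301% of those of KRT18. The pseudogene rows KRT19P2 (1439 counts, r = 0.970 with KRT19), KRT18P55 (2058 counts, r = 0.968 with KRT18) and KRT8P41 (1605 counts, r = 0.986 with KRT8) held 0.408%, 0.674% and 0.356% of the counts of their parent genes. Reads of a keratin and of these copies cannot be told apart from the gene table.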

How the data were processed

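The authors sequenced stranded total RNA libraries in paired ends and mapped the reads to hg19 (GRCh37) with TopHat2 2.0.14, allowing 1 best hit. They deposited raw read counts per RefSeq accession, made with RSeQC, as a table of the whole series. Of 34 samples, 30 were used: the day 10 columns of WT and ZEB2 shRNA replicates 1 and 2 held 42704 rows in another order than the 41627 accessions and were left out. Accessions were named from RefSeq (40281 matched, 97.1% of counts), and each gene took the accession with the largest total.

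Counts were fitted per day, or over WT days, with edgeR 4.0.16 (R 4.3.3; TMM, filterByExpr, quasi-likelihood test), and p-values were adjusted by Benjamini-Hochberg across every gene that passed the filter. Called genes passed the study's rules of 2-fold and 10% FDR (day 0), 4-fold and 10% FDR (day 2) or 8-fold and 1% FDR (days 6 and 10), and 5% FDR is given beside them. CPM was scaled by TMM-adjusted library sizes. CPM per kilobase divided it by the length of 1 reference transcript per gene (MANE Select), which was not matched to the row counted. Levels and ratios are described without tests. The keratins and gene lists were chosen with earlier results of these data known. The text names all 10 keratins, the 3 genes other than keratins closest to 5 of them, and up to 3 called genes per list and direction at days 6 and 10. VIM falls outside that rule and was chosen after its values were seen. Alternatives were RLE factors, DESeq2 1.42.0, no filter, the smallest accession, 1 fit of all libraries, the replicate number as a block, and each replicate left out. Sequences came from RefSeq tables (GRCh38.p14) and the GENCODE transcripts.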

Additional observations from a re-analysis of the deposited data

Results flagged for a closer look

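Several keratins changed by different amounts against WT at day 10 than at day 6, by a test of that difference in 1 edgeR fit of all 30 libraries over 18478 genes. In the NKX2-5 shRNA line the day 10 change minus the day 6 change was 3.21 ± 0.21 (log2, SE) for KRT18 (adjusted p = 2.91e-10), 2.54 ± 0.21 for KRT8 (adjusted p = 1.02e-08) and 4.09 ± 0.41 for KRT7 (adjusted p = 1.41e-07). Each of these was lower than WT at day 6 and higher at day 10. KRT23 differed by 10.27 ± 3.41 (adjusted p = 0.0244), a value that rests on 1 library with 42 counts while the other NKX2-5 library and both WT libraries of day 10 had 0, so its size depends on the fit. In the ZEB2 shRNA line the differences were 1.66 ± 0.20 for KRT18 (adjusted p = 1.11e-05), 1.44 ± 0.21 for KRT8 (adjusted p = 6.83e-05) and 1.51 ± 0.25 for KRT19 (adjusted p = 0.000252). Each of these fell in the ZEB2 line from day 6 to day 10, but fell further in WT. Mean CPM went from 551 to 304 against 704 to 122 in WT for KRT18 and from 1024 to 654 against 1135 to 265 for KRT8. For KRT19 it went from 715 to 569 against 504 to 140. For KRT19 in the NKX2-5 line the difference was -0.34 ± 0.25 (adjusted p = 0.294). All day 10 values share 2 WT libraries. For the NKX2-5 line they set replicates 1 and 2 against WT replicates 3 and 4, so a difference between sets of replicates cannot be told apart. No group had 4 or more libraries, so single libraries were not tested for standing apart.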

How the results depend on the processing

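Of 56 keratin changes at 5% FDR, the alternatives gave 551 values, of which 506 kept their direction and 5% FDR, 45 kept the direction and lost 5% FDR, and 0 reversed. RLE factors, DESeq2 and the smallest accession left every count of keratins past the study's rules within 1.5 times. With 5% FDR and no fold threshold the counts moved against WT at day 2 to 2 (NKX2-5) and 2 (ZNF503), at day 6 to 8, 2 (ZEB2) and 5, and at day 10 to 5 (NKX2-5) and 4 (ZEB2). Between lines they moved at day 6 to 8 (NKX2-5 against ZEB2), 4 (NKX2-5 against ZNF503) and 5 (ZNF503 against ZEB2), and at day 10 to 1. In WT they moved to 3, 4 and 3 from day 0 to days 2, 6 and 10. In 1 fit of all libraries the WT counts became 2 for day 2 and 2 for day 6. Leaving out 1 replicate gave 1 to 3 for NKX2-5 against WT at day 6, 1 to 2 for ZNF503 against WT, 2 to 3 for NKX2-5 against ZEB2, 1 to 2 for ZNF503 against ZEB2, and at day 10 0 to 2 for NKX2-5 against WT, 0 to 0 for ZEB2 against WT and 0 to 1 between them. A lone sample was then assumed to vary like the other groups. The cause was not tested.

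With the replicate number as a block, 2 keratins passed in NKX2-5 against WT at day 6, 1 in ZNF503 against WT at day 6 and 1 in ZEB2 against WT at day 10, as without it, and the block changed no other count. Correlations of same-numbered libraries' deviations ran from -0.299 to 0.440. At day 2 all 6 were positive (0.00314 to 0.440) and 4 were above 0.1, but not every pair was, so the numbers were not taken as pairing the samples. No paired analysis was possible because no numbers are shared for NKX2-5 at day 10 and for WT from day 0 to day 10. At the depth of day 10, 3 counts correspond to 0.102 to 0.326 CPM, and keratins below that are not detectable.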
